A study of Mus musculus with 2 samples.

Results

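The 10 genes described here encode TGF-beta and activin ligands (Tgfb1, Tgfb2, Tgfb3 and Inhba), a protein that holds TGF-beta in a latent complex (Ltbp1), receptors and a co-receptor (Tgfbr1, Tgfbr2, Tgfbr3 and Acvr1) and an intracellular inhibitor of the pathway (Smad7). They were chosen by symbol, all 10 were found in the gene lists of both libraries among 31054 genes, and all 10 had a mean level above the minimum of 5 counts per 1000000 (CPM) set for the comparisons. The cells were CD31- CD45- cells of gonadal white adipose tissue (gWAT) from 18-month-old male p16-CreERT2/Rosa26-LSL-tdTomato mice, a line in which tamoxifen, given to all animals, lets a Cre recombinase made from the p16 gene switch on the red reporter tdTomato permanently. 1 droplet library was made of sorted Tom+ cells (p16high) and 1 of Tom- cells, so the Tom- cells carried the same alleles and had the same treatment. The reporter marks cells in which the p16 gene was active while tamoxifen was present, and a cell that turned the gene on later stays Tom-. The sources used here do not give how many mice went into a library.

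TGF-beta is secreted bound to its own propeptide and, through LTBP proteins, is stored in the extracellular matrix until integrins or proteases release it. Free ligand binds the type II receptor TGFBR2, which recruits and phosphorylates the type I receptor TGFBR1, and SMAD proteins then carry the signal to the nucleus, whereas activins use other type II receptors. In adipose tissue the pathway is known for blocking the differentiation of progenitors into adipocytes and for driving matrix production and fibrosis, and mesothelial cells, which line the tissue, are known to respond to it strongly.

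The levels are sums of unique molecular identifiers (UMIs) over the cells of a class in a library, scaled to CPM, and a log2 ratio compares such levels. Cells were kept if they had over 1000 but under 7000 genes and under 8% mitochondrial UMIs, 3524 in the Tom+ and 6717 in the Tom- library. Cells with at least 10 UMIs of Msln, Upk3b, Krt19, Lrrn4 and Upk1b together were called mesothelial (250 Tom+ and 1887 Tom- cells), cells with fewer than 5 were called stromal (3263 and 4800), and 11 and 30 cells lay between. Stromal cells held a median of 14235 UMIs in the Tom+ and 11270 in the Tom- library, and mesothelial cells 18602 and 14753. The class names were checked against markers that the rule did not use. All 8 of another set of mesothelial markers were at 1 CPM or more in mesothelial cells of both libraries, summing to 4160 and 4294 CPM, against 245 and 384 CPM in stromal cells. A UMI of the progenitor marker Pdgfra was found in 92.3% of Tom+ and 87.2% of Tom- stromal cells, but also in 44.4% and 40.0% of mesothelial cells. A set of 6 stromal progenitor markers summed to 29507 and 30896 CPM in stromal and 13326 and 14990 CPM in mesothelial cells, so it set the classes apart less sharply. With 1 library per sort there is no replicate, no test or p-value can be given, and a difference between Tom+ and Tom- cells cannot be told apart from one between the preparations. The 95% intervals cover only the counting error.

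Cells of other kinds and shared barcodes touched some results below. Immunoglobulin UMIs made up more than 5% of the UMIs in 136 Tom+ and 54 Tom- stromal cells, and a UMI of the immune genes Ptprc, Adgre1, Cd79a or Fcer1g was found in 362 and 345 stromal cells and in 39 and 103 mesothelial cells. The 2 libraries listed 2224 barcodes in common. They included 404 (12.4%) of the Tom+ and 75 (1.56%) of the Tom- stromal cells, and 100 (40.0%) of the Tom+ and 207 (10.97%) of the Tom- mesothelial cells. Such a Tom+ cell held a median of 27932 UMIs against 663 under the same barcode in the other library, and only 9 shared barcodes passed the thresholds in both. Tom+ and Tom- levels are therefore also given without these cells where that matters. Summed reporter RNA followed the sort, since in stromal cells tdTomato was at 211 CPM for Tom+ and 13.1 CPM for Tom-, and in mesothelial cells at 780 and 8.25 CPM. By cell the separation was weaker in stromal cells. A tdTomato UMI was found in 28.6% of Tom+ and 13.1% of Tom- stromal cells, and in 79.2% and 11.4% of mesothelial cells. Without the cells with over 5% immunoglobulin UMIs it was found in 25.7% of Tom+ stromal cells. The summed level of tdTomato was not taken without them. Cdkn2a, the p16 gene, was low throughout. In stromal cells it was not higher in the Tom+ library, at 4.66 CPM for Tom+ and 5.79 CPM for Tom-. In mesothelial cells it was at 12.4 CPM for Tom+ and 8.47 CPM for Tom-.

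Tgfb1, the most widely made TGF-beta ligand, was in stromal cells at 23.6 CPM (exact Poisson 95% interval 22.2 to 24.9) for Tom+ and 21.6 CPM (20.4 to 22.9) for Tom-. In mesothelial cells it was at 21.2 CPM (17.5 to 25.5) for Tom+ and 14.7 CPM (13.4 to 16.1) for Tom-. The Tom- mesothelial cells thus stood below the other 3 profiles, whose intervals overlapped one another. Tgfb2, another TGF-beta ligand, was at 72.9 CPM (70.6 to 75.3) for Tom+ and 65.0 CPM (62.9 to 67.1) for Tom- stromal cells. It was at 52.2 CPM (46.3 to 58.7) for Tom+ and 57.0 CPM (54.4 to 59.6) for Tom- mesothelial cells, both under either stromal level.

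Tgfb3, the third TGF-beta ligand, had the opposite order. It was at 15.6 CPM (14.5 to 16.7) for Tom+ and 17.7 CPM (16.7 to 18.8) for Tom- stromal cells, and at 59.6 CPM (53.2 to 66.5) for Tom+ and 55.8 CPM (53.3 to 58.5) for Tom- mesothelial cells. Both mesothelial levels were far above both stromal ones and their intervals overlapped each other. Inhba, which encodes the subunit that pairs to make activin A, was the scarcest of the 10 in UMIs. It was at 6.48 CPM (5.80 to 7.21) in Tom+ stromal cells from 331 UMIs, and at 10.0 CPM (9.24 to 10.9) in Tom- stromal cells from 581. The mesothelial levels were 12.4 CPM (9.59 to 15.8) in the Tom+ and 10.7 CPM (9.57 to 11.8) in the Tom- library, so Tom+ stromal cells stood below the other 3 profiles.

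Ltbp1, which tethers latent TGF-beta to matrix fibrils, was almost a stromal gene. It was at 204 CPM (200.4 to 208) for Tom+ and 168 CPM (165 to 172) for Tom- stromal cells, and at 10.9 CPM (8.27 to 14.1) and 13.0 CPM (11.8 to 14.3) in mesothelial cells. Among mesothelial cells its UMIs were unevenly spread, since 26 of 250 Tom+ cells held all 58 UMIs and 1 cell held 10 of them.

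Tgfbr1, the type I receptor, was at 29.8 CPM (28.3 to 31.3) for Tom+ and 32.8 CPM (31.3 to 34.3) for Tom- stromal cells. It was at 25.2 CPM (21.1 to 29.8) for Tom+ and 21.9 CPM (20.3 to 23.6) for Tom- mesothelial cells. Tgfbr2, the type II receptor that binds ligand first, was at 156 CPM (153 to 159) for Tom+ and 145 CPM (142 to 148) for Tom- stromal cells, and at 163 CPM (153 to 175) and 134 CPM (130 to 138) in mesothelial cells. Both stromal levels of Tgfbr1 were above its mesothelial ones, with overlapping intervals in the Tom+ library, and for Tgfbr2 both Tom+ levels were above both Tom- levels. Tgfbr3, or betaglycan, presents ligand to TGFBR2, with the strongest known preference for TGF-beta 2. It was at 402 CPM (397 to 408) for Tom+ and 307 CPM (302 to 311) for Tom- stromal cells, and at 146 CPM (136 to 156) and 142 CPM (138 to 146) in mesothelial cells, so the stromal levels were higher in both libraries. Acvr1, a type I receptor of the BMP and activin branch, was nearly flat, from 24.1 CPM (22.8 to 25.5) in Tom+ stromal cells through 25.3 CPM (24.0 to 26.6) in Tom- stromal cells to 27.1 CPM (22.8 to 31.8) for Tom+ and 27.4 CPM (25.6 to 29.2) for Tom- mesothelial cells. Only the intervals of its lowest and highest profile failed to overlap.

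Smad7, which TGF-beta itself induces and which blocks TGFBR1, was at 229 CPM (225 to 233) for Tom+ and 275 CPM (270 to 279) for Tom- stromal cells. It was at 399 CPM (382 to 416) for Tom+ and 391 CPM (385 to 398) for Tom- mesothelial cells, above both stromal levels. These levels of all members stand together in the plot of CPM by class and library. UMIs are counted near the 3′ end of transcripts and were not scaled by length, so levels were compared within a gene and not between genes.

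**Figure D1:**
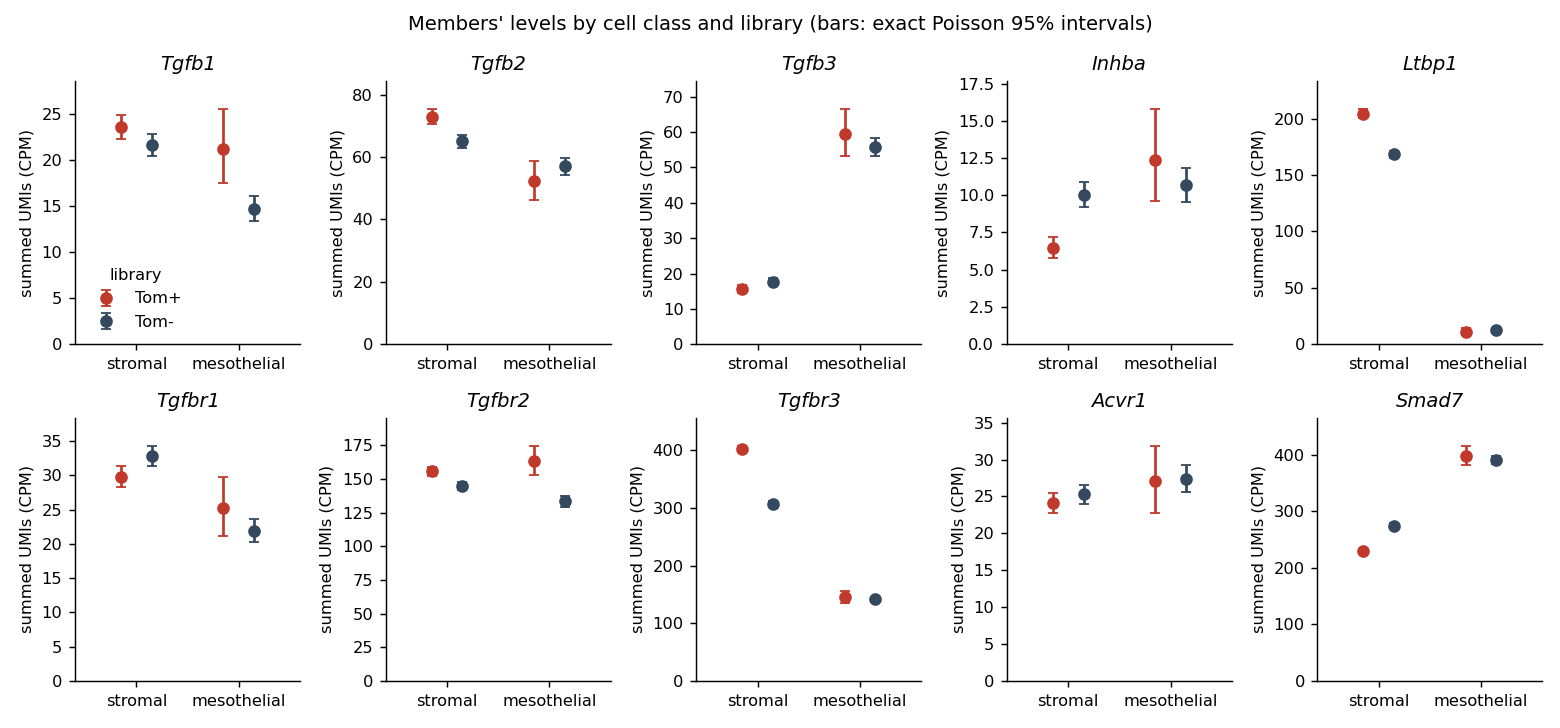
Level of each member in CPM of summed UMIs (y axis, from 0, a scale per gene) in stromal and mesothelial cells (x axis) of the Tom+ (red) and Tom- (dark blue) library, with exact Poisson 95% intervals as bars. Ltbp1 falls from 204 and 168 CPM in stromal cells to 10.9 and 13.0 CPM in mesothelial cells, and Tgfb3 rises from 15.6 and 17.7 CPM to 59.6 and 55.8 CPM.

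The first comparison asks which members differ between mesothelial and stromal cells of the same library. In the Tom- library, 6 of 10 members had a log2 ratio of at least 0.5 in either direction, where 40.2% of the 10019 genes at a mean of 5 CPM or more did. Tgfb3 and Smad7 were higher in mesothelial cells, where 24.5% of all genes were, and Ltbp1, Tgfbr3, Tgfbr1 and Tgfb1 were lower, where 15.7% were. In the Tom+ library 5 members passed, against 44.6% of 10240 genes, with Tgfb3, Inhba and Smad7 higher (26% of all genes) and Ltbp1 and Tgfbr3 lower (18.6%). The median log2 ratio of the members was -0.15 in the Tom- and -0.041 in the Tom+ library, against 0.14 and 0.11 over all genes.

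Ltbp1 had the largest difference, a log2 ratio of -3.69 (exact conditional 95% interval -3.84 to -3.55) in the Tom- library, or 12.9-fold lower in mesothelial cells. In the Tom+ library it was -4.23 (-4.63 to -3.86), or 18.8-fold lower. These ratios were at percentiles 1.20 and 1.25 of all genes. Tgfb3 was 3.15-fold higher in mesothelial cells of the Tom- library and 3.82-fold higher in those of the Tom+ library, with log2 ratios of 1.66 (1.54 to 1.77) and 1.93 (1.74 to 2.12) at percentiles 93.1 and 93.4. Tgfbr3 was lower in mesothelial cells by 2.17-fold and 2.76-fold, with log2 ratios of -1.12 (-1.16 to -1.07) and -1.46 (-1.57 to -1.36). For Smad7 the log2 ratio was 0.51 (0.48 to 0.55) in the Tom- library, just past the limit of 0.5, and 0.80 (0.73 to 0.87) in the Tom+ library. In the Tom- library it was under 0.5 in 7 of 12 other settings tried, among them 0.46 without shared barcodes and 0.37 with median-of-ratios scaling. All 4 genes kept the sign of these ratios in both libraries under each of these settings. With shared barcodes left out, the ratios in the Tom+ library were -5.36 for Ltbp1, 1.62 for Tgfb3, -1.64 for Tgfbr3 and 0.64 for Smad7.

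Of the members past 0.5 in a single library, Inhba had a log2 ratio of 0.94 (0.53 to 1.32) in the Tom+ and 0.087 (-0.11 to 0.28) in the Tom- library. The difference between these ratios was 0.85 (0.42 to 1.28, counting error only), the largest such difference among the members. The mesothelial levels of Inhba were close, at 12.4 and 10.7 CPM, while the stromal levels were 6.48 and 10.0 CPM. Tgfbr1 was at -0.58 (-0.71 to -0.46) in the Tom- and -0.24 (-0.51 to 0.014) in the Tom+ library, and Tgfb1 at -0.56 (-0.71 to -0.41) and -0.15 (-0.44 to 0.13). Their differences between libraries were 0.34 (0.056 to 0.62) and 0.41 (0.092 to 0.73). For Tgfb1 this difference rested on cells with immune UMIs and on shared barcodes. Without the latter Tgfb1 was past 0.5 in both libraries, at -0.60 in the Tom+ and -0.55 in the Tom- library, and without the former it was at -0.70 and -0.48. Tgfb2 was lower in mesothelial cells of both libraries, at -0.19 (-0.27 to -0.11) in the Tom- and -0.48 (-0.66 to -0.31) in the Tom+ library. In the Tom+ library Tgfb2 was past the limit in 9 of 12 other settings, at -1.08 without shared barcodes and -1.31 without cells with at least 10 immunoglobulin UMIs. Acvr1 lay at 0.11 (-0.0081 to 0.24) and 0.16 (-0.095 to 0.41).

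**Figure D2:**
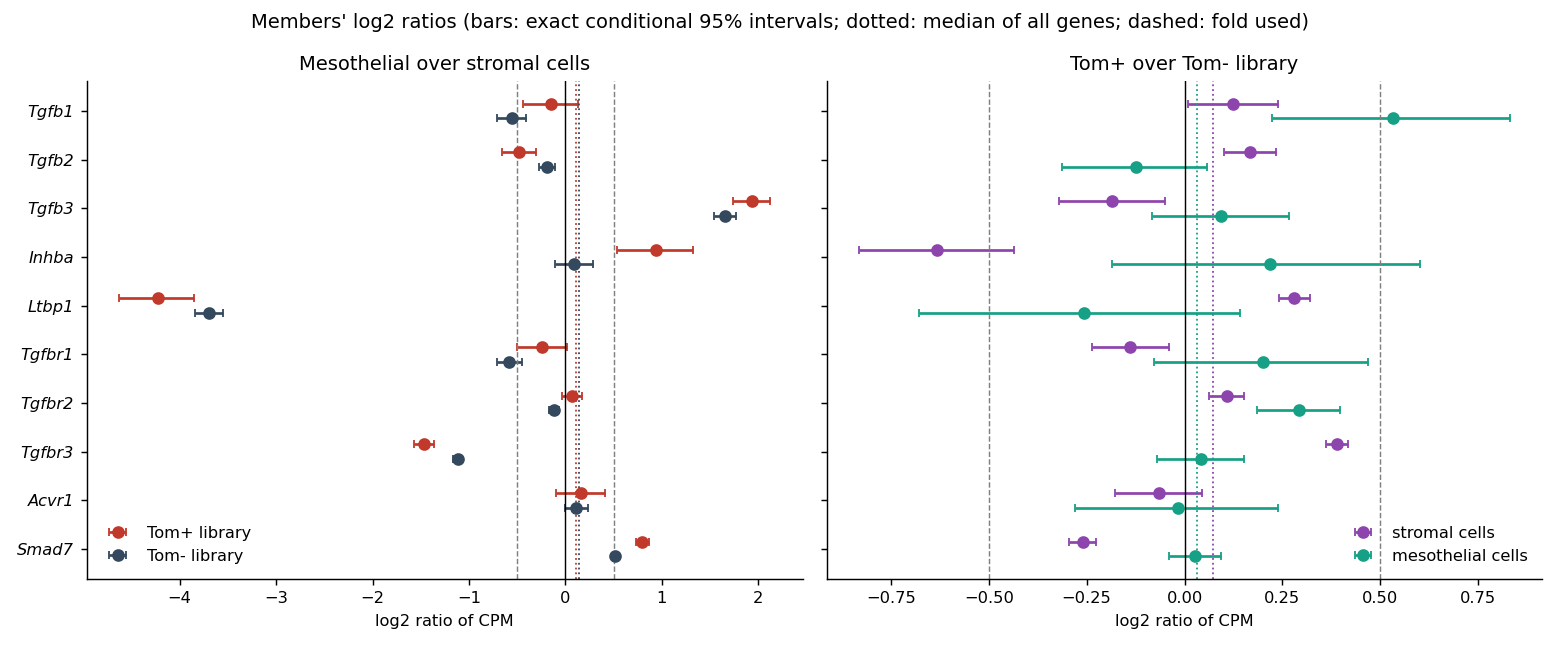
Log2 ratios of CPM (x axis) for the 10 members (y axis), mesothelial over stromal cells on the left (red, Tom+ library, and dark blue, Tom- library) and Tom+ over Tom- library on the right (purple, stromal cells, and green, mesothelial cells), with exact conditional 95% intervals as bars. Dotted lines are medians of all genes and dashed lines the limit of 0.5, and Ltbp1, Tgfb3, Tgfbr3 and Smad7 lie past that limit on the same side in both libraries on the left, while on the right Inhba in stromal and Tgfb1 in mesothelial cells are the points beyond it.

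The second comparison asks which members differ between Tom+ and Tom- cells of a class. In stromal cells 1 of 10 members passed 0.5, against 10.7% of 9778 genes, and 5 of 10 had a higher CPM in Tom+ cells. The median log2 ratio was 0.021 for the members and 0.071 for all genes. The member past the limit was Inhba, at -0.63 (-0.83 to -0.43), or 1.55-fold lower in Tom+ stromal cells, at percentile 2.82 of all genes, where 4.26% of genes were lower and 6.39% higher by at least 0.5. A single Tom+ stromal cell held 42 of the 331 Inhba UMIs, and a single Tom- stromal cell 28 of 581, and with the top cell of each library left out the ratio was -0.76. It was -0.69 without shared barcodes and -0.47 in stromal cells with a Pdgfra UMI, which is under the limit.

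The largest ratio in the other direction was that of Tgfbr3, at 0.39 (0.36 to 0.42), or 1.31-fold higher in Tom+ stromal cells, at percentile 88.1. It was 0.52 without shared barcodes and 0.32 with median-of-ratios scaling. Ltbp1 followed at 0.28 (0.24 to 0.32), at percentile 78.7, and Tgfb2 at 0.17 (0.10 to 0.23), at percentile 63.8. Smad7 was lower in Tom+ stromal cells, at -0.26 (-0.29 to -0.23), or 1.20-fold, at percentile 12.2. The other 5 members lay between -0.18 for Tgfb3 and 0.12 for Tgfb1, with Acvr1 at -0.066 (-0.18 to 0.044), Tgfbr1 at -0.14 (-0.24 to -0.041) and Tgfbr2 at 0.11 (0.063 to 0.15). Genes known to be switched on while tissue is dissociated moved with this comparison, since 13 of 14 were lower in Tom+ stromal cells, with a median log2 ratio of -0.23. Their part in the members' ratios was not tested. Immune genes moved with it too, as the 6 immune markers summed to 200 CPM in Tom+ and 51.2 CPM in Tom- stromal cells, with none at 0, and immunoglobulin UMIs to 59065 and 15089 CPM. Lyz2, a lysozyme of macrophages, was 6.36-fold and Adgre1, which encodes the macrophage antigen F4/80, 13.1-fold higher in Tom+ stromal cells. Without cells with an immune UMI the ratio of Inhba was -0.54, that of Tgfbr3 0.49 and that of Smad7 -0.17.

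In mesothelial cells Tgfb1 alone passed 0.5, at 0.53 (0.22 to 0.83), or 1.45-fold higher in Tom+ cells, where 4.8% of 10014 genes passed, 3.03% higher and 1.78% lower. The median log2 ratio was 0.067 for the members and 0.032 for all genes. Immune genes moved with it. The 6 immune markers summed to 355 CPM in Tom+ and 16.4 CPM in Tom- mesothelial cells, and 5 and 3 of them were at 1 CPM or more, with none at 0. Lyz2 was at 275 and 10.8 CPM, and Adgre1 at 18.6 and 0.216 CPM.

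The 39 Tom+ mesothelial cells with a UMI of Ptprc, Adgre1, Cd79a or Fcer1g held 52 of the 113 Tgfb1 UMIs, a level of 56.2 CPM (41.9 to 73.7), against 13.9 CPM (10.6 to 17.8) in the other 211 cells. In Tom- mesothelial cells the same split gave 16.6 CPM (11.7 to 22.8) in 103 and 14.5 CPM (13.2 to 15.97) in 1784 cells. Without cells with such a UMI the log2 ratio of Tgfb1 was -0.068, and without shared barcodes it was 0.064. Tgfbr2 was the other member whose interval lay above 0 in mesothelial cells, at 0.29 (0.19 to 0.40), and it fell to 0.21 without immune UMIs and to 0.054 without shared barcodes. The remaining 8 members had intervals that included 0, from -0.26 (-0.68 to 0.14) for Ltbp1 to 0.22 (-0.18 to 0.60) for Inhba. Without shared barcodes these 2 passed 0.5, Ltbp1 at -0.9999 and Inhba at 0.67. At 58 to 2122 UMIs a member in the Tom+ mesothelial cells, changes smaller than these intervals were not detectable.

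A share of cells with a UMI depends on depth, so each cell was thinned to 7563 UMIs and the shallower cells were left out, 271 Tom+ and 647 Tom- stromal and 3 and 99 mesothelial cells. Ltbp1 was then found in 74.8% (exact Clopper-Pearson 95% interval 73.2 to 76.3) of Tom+ and 66.7% (65.3 to 68.2) of Tom- stromal cells, and in 6.07% (3.44 to 9.82) and 5.48% (4.47 to 6.64) of mesothelial cells. Before thinning the shares were 84.4%, 74.5%, 10.4% and 10.0%. Tgfb3 showed the reverse, in 10.6% (9.51 to 11.8) of Tom+ and 11.4% (10.5 to 12.4) of Tom- stromal cells but in 36.8% (30.8 to 43.2) and 32.4% (30.2 to 34.6) of mesothelial cells. Inhba was found in 3.94% (3.28 to 4.70) of Tom+ and 5.44% (4.77 to 6.18) of Tom- stromal cells, although before thinning the shares were 7.23% and 7.79%. No cell type in these libraries is known to lack the members, so free RNA was not measured separately, and the share for Ltbp1 was the lowest of the members in mesothelial cells of both libraries.

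TGFBR1 and TGFBR2 act together, and after thinning RNAs of both were present in 13.5% (12.3 to 14.8) of the Tom+ stromal cells, in 12.6% (11.6 to 13.7) of the Tom- stromal cells, and in 10.1% (6.66 to 14.6) and 9.17% (7.87 to 10.6) of mesothelial cells. The products of the separate shares were 12.66%, 12.55%, 9.84% and 8.74%, all inside these intervals. A UMI of at least 1 of the 3 Tgfb ligands was found in 47.2% (45.4 to 49.0) of Tom+ and 43.2% (41.7 to 44.8) of Tom- stromal cells, and in 60.3% (53.9 to 66.5) and 56.3% (54.0 to 58.6) of mesothelial cells. Of the Tom+ stromal cells with a Tgfbr2 UMI, 48.0% (45.8 to 50.3) also had a ligand UMI, and of those without, 45.7% (42.6 to 48.7) had. In the Tom- library these shares were 44.3% (42.4 to 46.3) and 41.7% (39.3 to 44.1), again with overlapping intervals. With Tgfbr3 the intervals stood apart. A Tgfbr2 UMI was in 65.6% (63.8 to 67.4) of Tom+ stromal cells with a Tgfbr3 UMI and 50.2% (44.1 to 56.3) without. In Tom- stromal cells these shares were 60.3% (58.7 to 61.9) and 54.0% (49.9 to 58.2). For Smad7 in place of Tgfbr3 the Tom+ shares were 66.3% (64.0 to 68.5) and 61.0% (58.2 to 63.8), and the Tom- intervals overlapped. In mesothelial cells the intervals of both pairs overlapped. Cells with immune or many immunoglobulin UMIs were not left out of these shares. In Tom+ stromal cells with an immune UMI Tgfbr3 was at 197 CPM, against 445 CPM in the others, and Tgfbr2 at 85.6 against 171 CPM. The part of such cells in the shares was not tested.

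Within the stromal cells, members were followed along ranges cut from 2 scores of other genes, which are ranges and not cell types. The interstitial-high range was the top 25% by summed Pi16, Dpp4, Sema3c, Anxa3 and Cd55 UMIs, genes of early interstitial progenitors, with 812 Tom+ and 1083 Tom- cells. The preadipocyte-high range was the top 25% by Fabp4, Pparg, Lpl, Cd36 and Plin2 UMIs, genes of adipogenic commitment, with 788 and 1107 cells. The cuts were at 8.11 and 28.4 UMIs per 10000, with 336 and 485 cells within 10% of them, and 121 cells above both were placed in neither. Tgfbr2, Tgfb2 and Tgfb1 passed 0.5 with the same sign in both libraries when the preadipocyte-high range was set over the interstitial-high one. The share of all genes that did so in both libraries was not counted.

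Tgfbr2 had the steepest course, from 291 CPM (281 to 301) in interstitial-high to 113 CPM (108 to 119) in preadipocyte-high Tom+ cells, and from 260 CPM (252 to 269) to 91.1 CPM (86.1 to 96.3) in Tom- cells. Its log2 ratios were -1.36 (-1.45 to -1.27) and -1.52 (-1.61 to -1.42), where 8.7% of all genes in the Tom+ and 10.3% in the Tom- library were lower by at least 0.5. Tgfb2 went the same way, from 91.0 to 54.8 CPM in Tom+ and from 89.9 to 35.4 CPM in Tom- cells, with log2 ratios of -0.73 (-0.87 to -0.59) and -1.34 (-1.50 to -1.19). The receptor and this ligand were thus both highest in interstitial-high cells of both libraries. Tgfb1 went the other way, from 14.8 to 33.3 CPM in Tom+ and from 14.0 to 23.4 CPM in Tom- cells, with log2 ratios of 1.17 (0.91 to 1.43) and 0.74 (0.47 to 1.003), where 9.89% and 12.3% of genes were higher by at least 0.5.

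The other members moved less or differed between libraries. Tgfbr1 was at 31.2 and 34.2 CPM in the interstitial-high and preadipocyte-high ranges of the Tom+ library, and at 39.8 and 23.6 CPM in those of the Tom- library, log2 ratios of 0.13 (-0.071 to 0.34) and -0.76 (-0.96 to -0.55). Tgfbr3 was higher in interstitial-high cells, at -0.59 (-0.64 to -0.53) in the Tom+ and -0.35 (-0.41 to -0.30) in the Tom- library. Inhba was at 0.56 (0.11 to 1.01) in the Tom+ and -0.067 (-0.46 to 0.32) in the Tom- library. Ltbp1 was at -0.48 (-0.56 to -0.41) and -0.068 (-0.15 to 0.011), and Smad7 at -0.054 (-0.13 to 0.025) and -0.43 (-0.50 to -0.35). Tgfb3 was at 13.4 to 15.5 CPM and Acvr1 at 23.6 to 27.2 CPM in both ranges of both libraries, with intervals of the ratio that included 0.

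Set against each other within a range, Tom+ and Tom- cells differed in different members. In preadipocyte-high cells Tgfb2 was higher in the Tom+ library by 0.63 (0.46 to 0.80) on the log2 scale, Tgfbr1 by 0.54 (0.33 to 0.75) and Tgfb1 by 0.51 (0.30 to 0.72), against a median of 0.10 over all genes. In interstitial-high cells these ratios were 0.017 (-0.10 to 0.14), -0.35 (-0.55 to -0.16) and 0.076 (-0.23 to 0.38). How many of all genes passed 0.5 within a range was not counted, and leaving out immune UMIs or shared barcodes was not tested there. Among the preadipocyte score genes, Cd36 reached 120 CPM in preadipocyte-high Tom+ cells, against 32.4 CPM in the Tom- ones. Pparg went the other way (40.9 against 49.3 CPM), as did Plin2 (490 against 517 CPM). Whether this range held the same kinds of cell in both libraries was not tested. Tgfbr3 was higher in Tom+ cells of each range, at 0.49 (0.43 to 0.54) in interstitial-high, 0.26 (0.19 to 0.32) in preadipocyte-high and 0.40 (0.36 to 0.44) in other stromal cells. The lower level of Inhba in Tom+ cells was found in other stromal cells, at -1.01 (-1.29 to -0.73), and interstitial-high cells, at -0.54 (-0.99 to -0.091), while in preadipocyte-high cells the ratio was 0.088 (-0.31 to 0.48). The ranges took similar shares of both libraries, with 24.9% of Tom+ and 22.6% of Tom- stromal cells in the interstitial-high and 24.1% and 23.1% in the preadipocyte-high range.

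**Figure D3:**
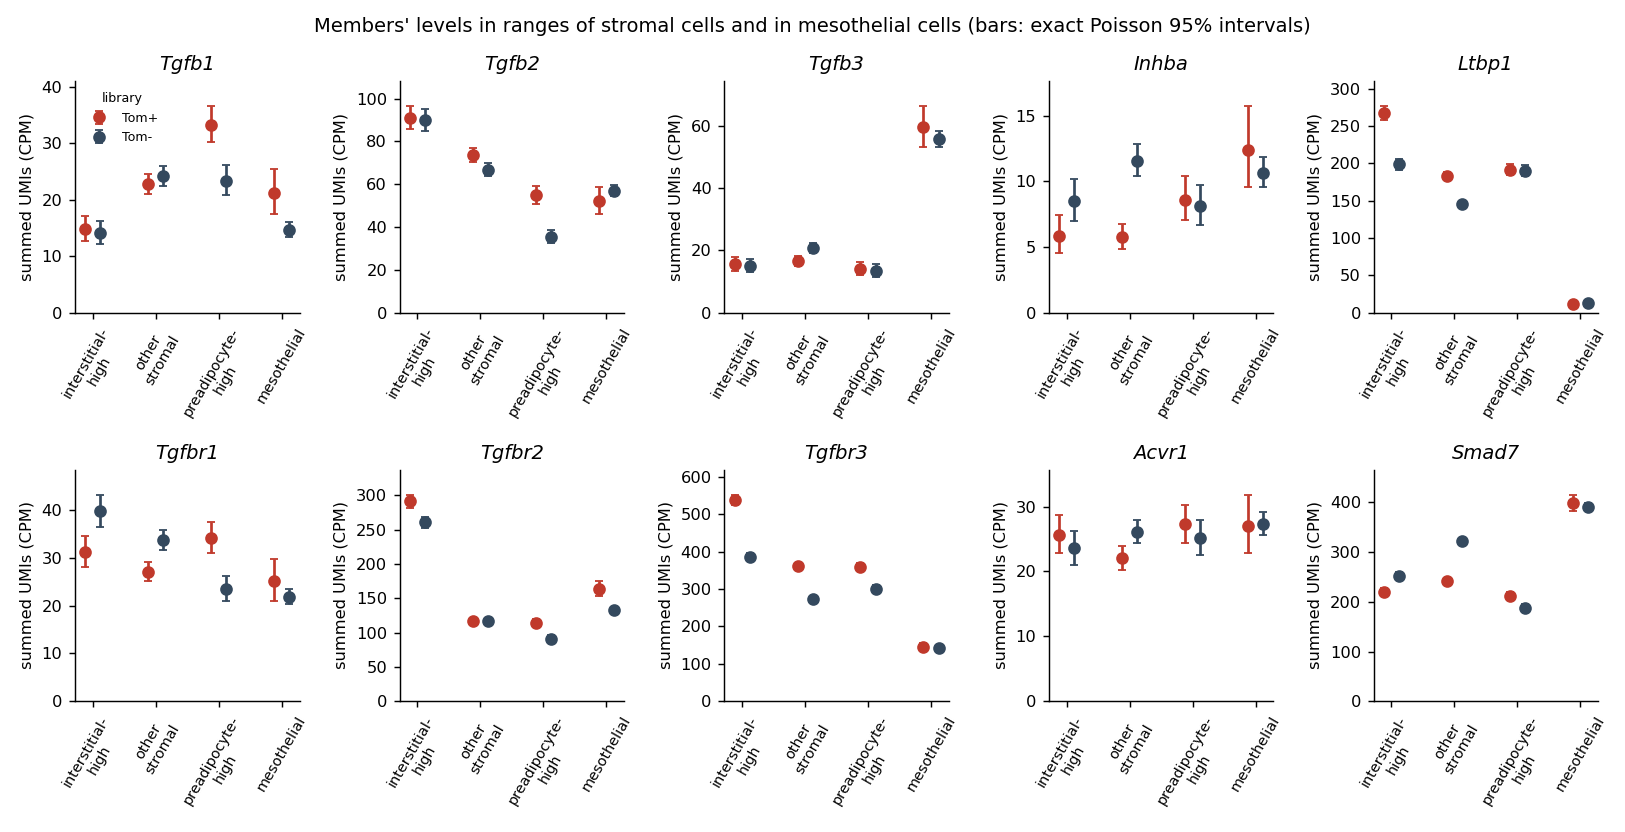
Level of each member in CPM of summed UMIs (y axis, from 0, a scale per gene) in 3 ranges of stromal cells and in mesothelial cells (x axis) of the Tom+ (red) and Tom- (dark blue) library, with exact Poisson 95% intervals as bars. Tgfbr2 and Tgfb2 are highest in interstitial-high cells, at 291 and 260 CPM and at 91.0 and 89.9 CPM, whereas Tgfb1 is lowest there, at 14.8 and 14.0 CPM.

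The windows before the transcript starts of Ltbp1, Tgfbr2 and Tgfb2 are shown because Ltbp1 had the largest difference between the classes, and Tgfbr2 and Tgfb2 ran the same way along the ranges. They hold the 250 bases before each start, on the coding strand, from RefSeq for GRCm38.p6, and entries of this kind were read for 7 of the 10 members. Capitals mark matches on either strand to CAGAC, the short element that SMAD3 and SMAD4 bind, which 42.2% of 32851 such windows hold. Not all windows read held this element. Those of Tgfb1, Inhba and Acvr1 had no match, and of the Tgfbr1 windows only the downstream one had. The palindrome of this element (GTCTAGAC, 0.167% of windows) and the AP-1 site (TGANTCA, 6.75%) had no match in the windows of these 7 members. Smad7 was left out of this reading by choice, and Tgfb3 and Tgfbr3 were not among the entries read. Whether the windows of those genes hold a match is therefore not reported. Ltbp1 has 2 annotated starts, chr17:75005279-75005528 for the upstream and chr17:75178531-75178780 for the downstream window, both on the plus strand, and the Tgfb2 (chr1:186705990-186706239) and Tgfbr2 (chr9:116175364-116175613) windows are on the minus strand.
Ltbp1, upstream start: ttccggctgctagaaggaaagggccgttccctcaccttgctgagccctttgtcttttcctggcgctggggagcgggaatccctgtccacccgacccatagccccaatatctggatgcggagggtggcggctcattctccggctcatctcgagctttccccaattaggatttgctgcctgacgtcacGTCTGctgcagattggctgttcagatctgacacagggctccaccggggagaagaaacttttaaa
Ltbp1, downstream start: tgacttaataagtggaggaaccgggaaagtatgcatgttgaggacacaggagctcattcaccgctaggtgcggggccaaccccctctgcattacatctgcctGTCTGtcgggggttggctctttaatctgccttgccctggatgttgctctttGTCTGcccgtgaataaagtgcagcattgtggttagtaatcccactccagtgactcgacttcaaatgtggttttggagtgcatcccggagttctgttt
Tgfbr2: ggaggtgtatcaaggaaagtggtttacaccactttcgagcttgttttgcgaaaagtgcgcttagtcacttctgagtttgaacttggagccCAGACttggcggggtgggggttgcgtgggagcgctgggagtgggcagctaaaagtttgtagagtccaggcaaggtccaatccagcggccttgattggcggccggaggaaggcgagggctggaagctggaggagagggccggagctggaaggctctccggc
Tgfb2: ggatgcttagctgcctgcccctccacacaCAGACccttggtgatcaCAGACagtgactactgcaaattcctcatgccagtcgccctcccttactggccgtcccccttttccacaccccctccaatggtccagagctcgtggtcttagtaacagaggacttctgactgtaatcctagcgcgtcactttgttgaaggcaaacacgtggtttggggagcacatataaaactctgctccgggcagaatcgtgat

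Tgfb1, Tgfb2, Tgfbr1 and Tgfbr2 were also targets of quantitative PCR in the study, and its primers are shown because they read other stretches of the transcripts than the 3′ counting here. The Tgfb1 pair spans chr7:25687911-25688043 in exon 1 on the plus strand of GRCm38 and ends 1133 bases from the 3′ end of the transcript. The Tgfb2 pair (chr1:186704549-186704695, exon 1, minus strand) ends 3675 bases from it, and the Tgfbr1 pair (chr4:47393325-47393424, exon 3, plus strand) 5157 bases. The Tgfbr2 pair spans exons 2 to 3 (chr9:116129966-116131638, minus strand) and ends 2849 bases from the 3′ end. The products are 133, 147, 100 and 135 bases long.
Tgfb1 forward primer: ctcccgtggcttctagtgc
Tgfb1 reverse primer: gccttagtttggacaggatctg
Tgfb2 forward primer: tcgacatggatcagtttatgcg
Tgfb2 reverse primer: ccctggtactgttgtagatgga
Tgfbr1 forward primer: tctgcattgcacttatgctga
Tgfbr1 reverse primer: aaagggcgatctagtgatgga
Tgfbr2 forward primer: gactgtccacttgcgacaac
Tgfbr2 reverse primer: ggcaaaccgtctccagagtaa

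Within the Tom+ library, stromal cells were also split by whether a tdTomato UMI was found. The 934 cells with one held a median of 15214.5 UMIs and the 2329 without 13948, so the split is not free of depth. With all cells, 8 of 10 members had a lower CPM in cells with reporter RNA, and 2 were lower by at least 0.5 and none higher, where 7.81% of all genes were lower and 2.44% higher. Tgfbr3 was at 308 CPM with and 451 CPM without reporter RNA, a log2 ratio of -0.55 (-0.60 to -0.51), and Ltbp1 at 157 and 228 CPM, a ratio of -0.54 (-0.60 to -0.47). That these 2 ratios passed 0.5 rested on few cells, while both stayed below 0 in each setting of this split. Between the libraries the same 2 genes had the other sign, higher in Tom+ stromal cells at 0.39 and 0.28. Of the 136 cells with over 5% immunoglobulin UMIs, 131 lay among those with a tdTomato UMI, and without them 3 of 10 members were lower and none by 0.5. Leaving them out raised the ratio of every member, such as that of Tgfb2 from -0.32 to 0.12 and that of Smad7 from -0.27 to 0.11. The share of all genes with a lower CPM of any size was not counted.

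In the remaining 803 and 2324 cells Tgfbr3 was at 404 and 451 CPM, a log2 ratio of -0.16 (-0.21 to -0.11), and Ltbp1 at -0.14 (-0.20 to -0.072). Tgfb1 was then higher in cells with reporter RNA, at 30.5 against 22.3 CPM and a log2 ratio of 0.45 (0.27 to 0.63), and Inhba at 9.13 against 6.18 CPM and 0.56 (0.22 to 0.90). When only shared barcodes were left out of all cells, the ratio of Tgfb1 was 0.50 (0.30 to 0.71) and that of Inhba -0.072 (-0.53 to 0.37). When only cells with an immune UMI were left out, these ratios were 0.30 (0.089 to 0.50) and 0.69 (0.34 to 1.04). For Inhba the direction thus depended on which cells were left out. The splits within a range again used all Tom+ stromal cells, including those rich in immunoglobulin UMIs. In the preadipocyte-high range Tgfb1 was at 44.6 CPM in 226 cells with and 28.4 CPM in 562 cells without reporter RNA, a ratio of 0.65 (0.36 to 0.94). Inhba was the other member past 0.5 there, at 14.9 and 5.81 CPM, a ratio of 1.36 (0.79 to 1.93). A single Tom+ stromal cell held 42 of the 331 Inhba UMIs, and its part in this ratio was not tested. In the interstitial-high range the ratio of Tgfb1 was 0.29 (-0.23 to 0.79). In the other stromal cells, 534 with and 1129 without reporter RNA, it was -0.15 (-0.40 to 0.087). All 10 members were lower in those with reporter RNA, 7 of them by at least 0.5. Whether these members stay lower there without the cells rich in immunoglobulin UMIs was not tested. The shares of all genes that were lower, or past 0.5 in either direction, were not counted within a range. The counts of members there therefore have no background to be set against. Among Tom+ mesothelial cells, 198 with and 52 without reporter RNA, Tgfbr2 was at 151 and 203 CPM, a ratio of -0.43 (-0.64 to -0.21). There Inhba, at 1.04 (0.020 to 2.24), and Ltbp1, at 3.19 (1.27 to 6.27), were higher by at least 0.5 in cells with reporter RNA, where 8.03% of genes were. They rested on 66 and 58 UMIs in all, and Ltbp1 was at 1.53 CPM in the 52 cells without. Tgfb1 was lower, where 9.18% were, at -0.58 (-1.16 to 0.028). Mesothelial cells with reporter RNA held a median of 17550 UMIs and those without 24467. Leaving out immune UMIs, shared barcodes or the top cell was not tested in this split.

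**Figure D4:**
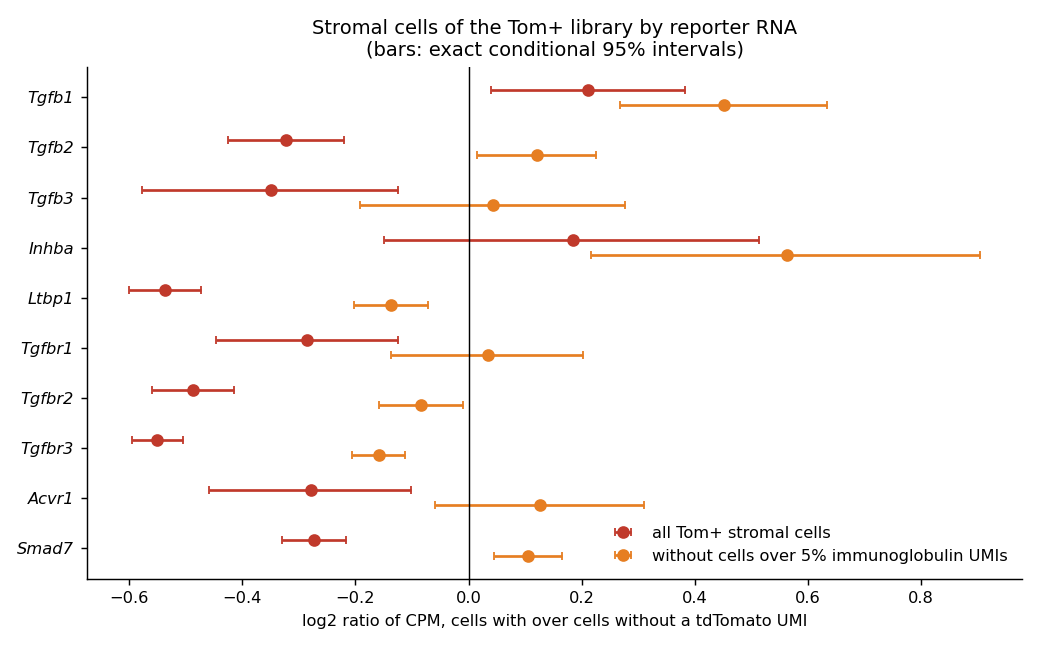
Log2 ratio of CPM in Tom+ stromal cells with over those without a tdTomato UMI (x axis) for the 10 members (y axis), with all cells (red) and without cells with over 5% immunoglobulin UMIs (orange), with exact conditional 95% intervals as bars. Leaving out these 136 cells moves Tgfbr3 from -0.55 to -0.16 and Ltbp1 from -0.54 to -0.14, and Tgfb1 from 0.21 to 0.45.

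Other genes of the pathway were taken from 6 lists of 61 genes in all. In stromal cells, 4 of 52 at the minimum level were higher in Tom+ and 6 higher in Tom- cells by at least 0.5, where 6.39% and 4.26% of all genes were, and their median log2 ratio was -0.00047. Among the targets, which TGF-beta is known to induce, 3 of 15 were higher and 2 lower, with a median of 0.26. The higher ones were Postn at 1.02 and Loxl2 at 0.61, which act in the matrix, and Igfbp3, a binding protein of insulin-like growth factors, at 0.83. The lower ones were Tagln at -1.37 and Acta2 at -1.14, both genes of the contractile apparatus. None of the 11 antagonists was higher and 1 was lower, Fstl3 at -0.61. Under the limit were Smurf1, a ubiquitin ligase that acts with SMAD7, at 0.42 and Pmepa1, which withholds SMADs from the receptor, at -0.40. The co-receptor Cd109, which turns TGF-beta receptors over, was at 1.13, and the decoy receptor Bambi at -1.06. Among latency and activation genes, none of 12 was higher and 2 were lower, Thbs1, an activator of latent TGF-beta, at -0.82 and Ltbp2, a relative of Ltbp1, at -1.24. Ltbp4, another relative, was at -0.42, under the limit. The transducers Map3k7 and Smad4 were at 0.36 and 0.25, and none of 5 in that list passed.

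In mesothelial cells, 1 of 52 pathway genes was higher in Tom+ and 3 higher in Tom- cells, where 3.03% and 1.78% of all genes were, with a median of -0.046. Igfbp3 was at 0.99 and Tagln at -0.55. Thbs1 was at -0.55 and Bambi at -0.61, the same directions as in stromal cells, while Ltbp2 was at -0.29, Fst at -0.35, Dcn at -0.18, Bmpr2 at 0.30, Zfyve9 at 0.23 and Map3k7 at 0.090, all under the limit.

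Between the classes, 12 of 53 pathway genes were higher and 24 lower by at least 0.5 in mesothelial than in stromal cells of the Tom- library, where 24.5% and 15.7% of all genes were. In the Tom+ library 12 and 23 of 54 were, against 26% and 18.6% of all genes. Their median log2 ratios were -0.22 and -0.23. Of the 16 targets, 5 were higher and 8 lower in each library, so the list did not move one way. The smooth muscle actin Acta2 was higher in mesothelial cells, at 3.57 in the Tom- and 4.48 in the Tom+ library, and the matrix protein periostin, Postn, lower, at -3.66 and -5.17. Of 12 latency and activation genes in the Tom- library, 3 were higher and 5 lower by at least 0.5. Of 13 in the Tom+ library, 4 were higher and 5 lower. The fibrillin Fbn1 was lower, at -2.05 and -2.33, as was the integrin subunit Itgb5, at -1.23 and -1.18. Ltbp2 and Ltbp3, relatives of Ltbp1, were higher. Ltbp2 was at 36.6 CPM in mesothelial and 23.5 CPM in stromal Tom- cells, and at 29.9 and 9.90 CPM in Tom+ cells. Ltbp3 was at 145 and 101 CPM in Tom- and 146 and 91.3 CPM in Tom+ cells. The relative Ltbp4 differed in direction, at 485 CPM in mesothelial and 537 CPM in stromal Tom- cells, and at 437 and 400 CPM in Tom+ cells.

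The co-receptor endoglin, Eng, was lower in mesothelial cells, at -3.29 and -3.21, as was the type II activin receptor Acvr2a, at -1.57 in the Tom- and -2.22 in the Tom+ library, while Cd109 was higher, at 1.73 and 0.54. The activin antagonist follistatin, Fst, was lower, at -1.38 and -2.07, and Smad6, the inhibitory SMAD of the BMP branch, higher, at 1.32 and 1.58. Inhbb, which encodes the subunit of activin B, was the only ligand of its list at the minimum level and was lower, at -1.58 and -1.47. The transducers Smad2, Zfyve9 and Map3k7 were at 0.10, 0.093 and 0.057 in the Tom- and 0.16, 0.19 and -0.21 in the Tom+ library. The plot of the pathway genes sets the 2 libraries side by side.

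**Figure D5:**
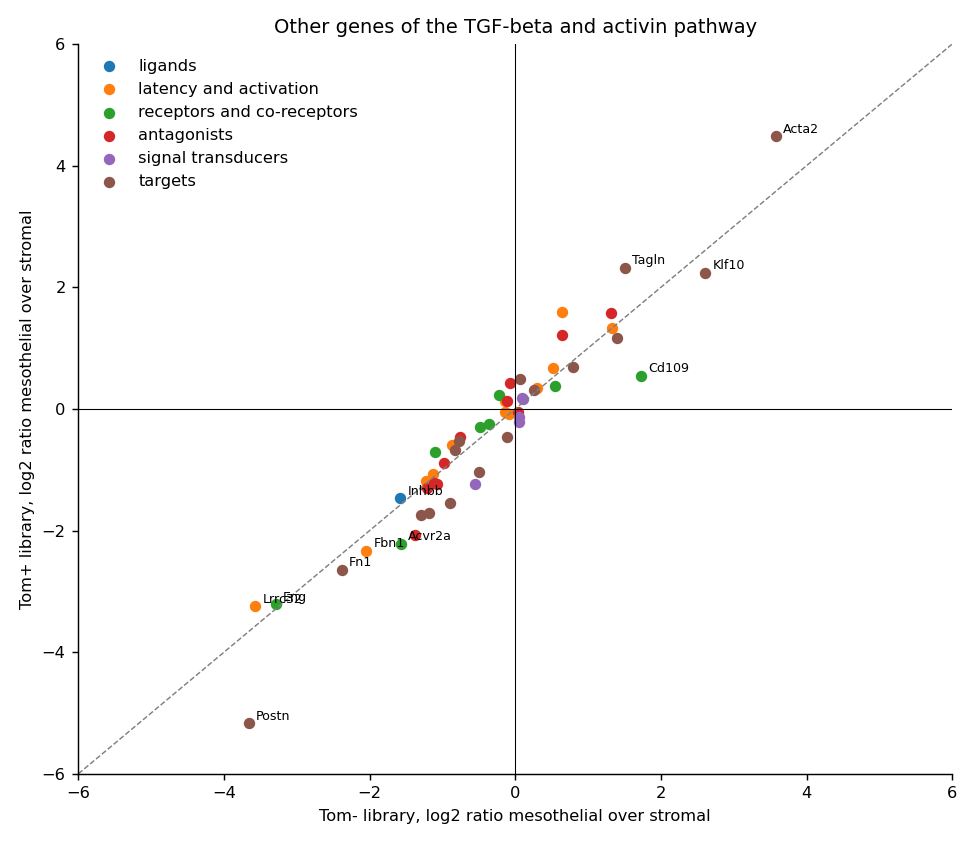
Log2 ratio of mesothelial over stromal cells for the other pathway genes at the minimum level, in the Tom- library (x axis) and the Tom+ library (y axis), coloured by list, with the dashed line where both are equal. Acta2 lies at 3.57 and 4.48 and Postn at -3.66 and -5.17, and genes past 1.5 in size on the x axis are named.

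Over the 8 profiles of class and range by library, the gene whose log2 level ran most like that of each member was found among 6031 genes. The highest Pearson r were 0.998 for Ltbp1 with Ace, 0.995 for Tgfbr3 with Snx18, 0.995 for Tgfb3 with Gsdme, 0.987 for Tgfbr2 with Limch1 and 0.976 for Smad7 with Pdzrn3. For Tgfb1 it was 0.958 with Nudt4, for Tgfb2 0.930 with Rpl32, for Acvr1 0.930 with Abcg2, for Inhba 0.924 with Efnb1 and for Tgfbr1 0.913 with Ugcg. The 8 profiles come from 2 libraries and share their depth and preparation, and the values describe these profiles only. Each r is the highest of 6031 over only 8 profiles, so a high value by itself shows no link between the genes.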

How the data were processed

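The authors deposited raw UMI counts, whole numbers for each gene in each barcode with no scaling, made from 10x Genomics 3′ libraries with Cell Ranger 3.0.2 on mm10 per the labels, 5566 barcodes and 61119807 UMIs for Tom+ and 11838 barcodes and 96872394 UMIs for Tom- cells. Each cell type label in the text was rebuilt here from marker UMIs, since no annotation of cells was used. Counts were summed per library and class and scaled to CPM in Python 3.11.15 with numpy 2.4.6, pandas 2.3.3 and scipy 1.17.1, with exact Poisson intervals for levels, exact conditional (Clopper-Pearson) intervals for ratios and exact binomial intervals for shares, all at 95%. No test was possible with 1 library per sort. A log2 ratio of at least 0.5 was the limit for counting a gene, and the background was formed by genes whose mean reached 5 CPM. No doublet caller was run. Leaving out cells above the 95th percentile of UMIs was an alternative. The members and all gene lists were chosen with earlier results of these data known. Named genes were the 10 members, the 2 genes of each pathway list with the largest ratio whose mean reached 20 CPM in each comparison, tdTomato, Cdkn2a and the gene most alike each member. Lyz2, Adgre1 and Fstl3, and Ltbp2, Ltbp3 and Ltbp4 between the classes, were named after their values were seen. So were Postn, Loxl2, Igfbp3 and Ltbp2 in stromal cells between the libraries, and the score genes Cd36, Pparg and Plin2 in the preadipocyte-high range. The ratio code was tested on simulated data, where all 200 changed genes of the comparison of stromal cells (9778 genes) had the right sign and 95.4% of intervals held the true ratio. Gene positions and transcripts came from GENCODE on GRCm38.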

Additional observations from a re-analysis of the deposited data

Results flagged for a closer look

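UMIs of the 10 members were also found in barcodes that the comparisons did not use. Barcodes outside the limits on genes and mitochondrial UMIs held 4247 member UMIs in the Tom+ and 6494 in the Tom- library, or 916 and 1008 CPM, above the limits of 0.647 and 0.465 CPM that a count of 0 allows (3 counts of the total). Cells with 5 to 9 UMIs of the mesothelial markers held 78 and 196 member UMIs, or 1434 and 1048 CPM, with limits of 55.1 and 16.04 CPM. For comparison, the members summed to 1164 CPM in Tom+ and 1067 CPM in Tom- stromal cells and to 916 and 867 CPM in mesothelial cells.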

How the results depend on the processing

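No paired analysis was possible because each sort had 1 library and the samples carry no shared replicate numbers. Of the 40 log2 ratios of members over the 4 comparisons, 29 kept their sign under all other choices of cells or scaling, 12 in number (11 for mesothelial cells between the libraries), and 11 did not, 6 of them in mesothelial cells between the libraries. The settings that left out cells with immune UMIs, cells with over 5% immunoglobulin UMIs, shared barcodes or the top cell of a member, and all settings of the reporter split, were chosen after seeing the data. In stromal cells, the count of members past 0.5 between the libraries went from 1 to 2 without cells with at least 10 immunoglobulin UMIs and without shared barcodes, and to 0 in cells with a Pdgfra UMI and at a limit of 1. Leaving out cells with at least 10 immunoglobulin UMIs removed 1632 of the 3263 Tom+ stromal cells. In mesothelial cells the count went from 1 to 0 with every cell weighted equally, under 5% mitochondrial UMIs, with over 1500 and under 6500 genes per cell, without cells with immune UMIs, without the top cell of each member and at a limit of 1, to 2 without shared barcodes (Ltbp1 and Inhba) and to 4 without cells with at least 10 immunoglobulin UMIs, which left 88 Tom+ cells. Tgfb1 in these cells reversed to -0.27 in that last setting and to -0.068 without immune UMIs. Between mesothelial and stromal cells, the count fell at a limit of 1 from 6 to 3 in the Tom- and from 5 to 3 in the Tom+ library. At the limit of 0.5 it lay between 4, without immune UMIs, and 6 in the Tom- library, and between 5 and 7 in the Tom+ library, with 7 without immune UMIs, without shared barcodes and without cells with at least 10 immunoglobulin UMIs. In that last setting Igfbp3 in the Tom+ library reversed to 0.54. In the reporter split the count was 2, both lower in cells with reporter RNA (Tgfbr3 and Ltbp1). It went to 1, a higher one, without cells with over 5% immunoglobulin UMIs, without immune UMIs and without shared barcodes. That member was Inhba in the first 2 of these settings and Tgfb1 in the last, so neither Tgfbr3 nor Ltbp1 stayed past 0.5. The count of members along the stromal ranges stayed at 3 in all other choices of cells or scaling at the limit of 0.5. At a limit of 1 only Tgfbr2 passed in both libraries, since Tgfb2 was at -0.73 in the Tom+ and Tgfb1 at 0.74 in the Tom- library. In Tom+ stromal cells 6 members had the higher thinned share, against 9 without thinning. Apart from these settings, which change the cells used, the cause of a change was not tested. Median-of-ratios scaling moved each ratio by the median of all genes.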
